A study of Homo sapiens with 3 samples.

Results

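The cells of the library labelled day 2 were compared with those of the library labelled day 0 over all genes, with attention to gene families and functions other than pluripotency and neural identity. Cells were chosen by quality alone. A cell needed 1000 or more UMIs (unique molecular identifiers, one per captured RNA molecule) and 500 or more genes, with no more than 25% of its UMIs on the mitochondrial genome. Of 11291 and 12323 barcodes in the files, 2290 and 2419 cells remained, together 4709 of the 8889 kept cells of the series. The cells are H9, an established human embryonic stem cell line, profiled one by one with the droplet methods inDrop and TruDrop; the labels name STEMdiff SMADi Neural Induction Kit and mTeSR medium for every library and place the libraries at day 0, 2 and 6 of neural progenitor differentiation. There is 1 library per day, so no difference has a replicate check and none was tested. No genotype or further agent is named, and what the letters A and B after the days stand for is not given.

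The marker content went against the day labels. Levels are counts per 1000000 summed UMIs (CPM). POU5F1, the pluripotency factor OCT4, measured 2.22 CPM for the library labelled day 0 and 1229 CPM for the one labelled day 2. PAX6, a neural progenitor factor, measured 176 and 6.64 CPM. The libraries are therefore called by their labels throughout, and no difference is described as a course over time. Where 2 levels or shares stand together, the library labelled day 0 comes first, and a ratio or log2 ratio is day 2 over day 0 as labelled. Intervals are 95% intervals and cover counting error only. Those of folds are exact conditional binomial, and those of shares exact Clopper-Pearson.

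Pluripotent stem cells in culture are an epithelium with E-cadherin junctions and a high rate of glycolysis, and they need FGF and activin signals. Neural progenitors carry N-cadherin and other intermediate filaments and cadherins than pluripotent cells, build primary cilia that receive hedgehog signals, and respond to ephrin, WNT and BMP cues. Cholesterol synthesis, the response to amino acid shortage through the factor ATF4 and the response to low oxygen through HIF factors are general cell programmes whose genes are read out together.

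The kept cells held 28341741 and 20626135 UMIs, with medians of 8770 and 3814 UMIs and of 3135 and 1749 genes per cell. Mitochondrial UMIs made up a median of 12.1% and 5.26% of a cell, and 20.2% and 49.0% of cells were under 5%. The libraries shared 38 kept barcodes, which is 1.66% and 1.57% of their cells. Cells with more markers of the other kind than of their own (13 and 41) were few. Of 7 marker lists for other cell types (neuron, neural crest, mesoderm, endoderm, amnion and trophoblast, blood and endothelium, muscle and heart), the summed level ran from 2.79 to 283.82 CPM and from 3.54 to 160.38 CPM, highest for neuron in both. No UMI of SOX17, TUBB3 or NEUROD1 was found under the day 0 label, nor of XAGE2, TYROBP or APOA1 under the day 2 label. TUBB3 had 1 UMI under the day 2 label, and why it was near absent in both libraries was not tested. Other neuron markers, SYT1 and GAP43, measured 234 and 16.5 CPM under the day 0 label.

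At least 10 CPM in 1 of the libraries was reached by 10160 of 31113 gene symbols. In the library labelled day 2, 1029 of these (10.1%) were higher by 2-fold or more, 1035 (10.2%) were at 0.5 times or less, and 8096 lay between, so that 20.3% passed 2-fold in either direction. The median log2 ratio over all of them was 0.01, and 178 genes were at least 10-fold higher against 66 at least 10-fold lower. Genes abundant in 1 of the libraries were among those past 2-fold, such as DLK1 at 3137 and 79.5 CPM and CD24 at 170 and 1660 CPM. Of 113 genes with at least 1000 CPM in both libraries, 0 were higher by 2-fold or more. Only 1 of them, FTL, was at 0.5 times or less, and their median log2 ratio was 0.03. FTL, the light chain of the iron store ferritin, measured 2038 and 1012 CPM (2.02-fold lower, 1.98 to 2.05). FTL did not reach 2-fold as a mean over cells, each scaled to its own total (0.623 times), in cells with at most 10% mitochondrial UMIs (0.592 times) or without the 5% of cells with most UMIs (0.55 times).

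**Figure D1:**
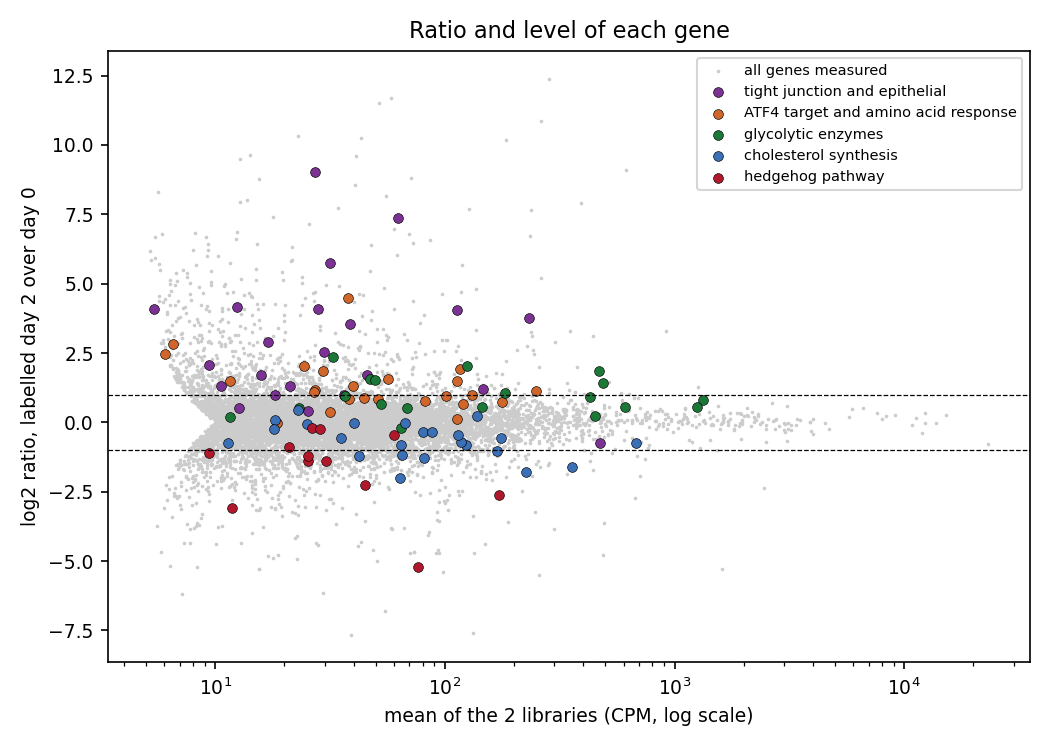
Each point is 1 of 10160 genes; the horizontal axis is the mean of both libraries in CPM on a log scale and the vertical axis the log2 ratio of the library labelled day 2 over that labelled day 0, with dashed lines at 2-fold. Tight junction and epithelial genes (median log2 ratio 2.31), ATF4 targets (1.10) and glycolytic enzymes (0.81) lie mostly above 0, and cholesterol synthesis (-0.63) and hedgehog genes (-1.29) mostly under it.

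Tight junction and epithelial genes stood furthest apart among the lists of function. In the library labelled day 2, 17 of 22 measured tight junction and epithelial genes were higher by 2-fold or more and 0 were at 0.5 times or less, with a median log2 ratio of 2.31. Below, higher and lower in a count mean past these limits. Desmosome and keratin genes, also epithelial, differed less: of 11 measured, 2 (18.2%) were higher and 0 lower, with a median of -0.06. KRT18 measured 96.6 and 230 CPM (2.37-fold higher, 2.27 to 2.49), but KRT8 80.2 and 75.5 CPM. EPCAM, an adhesion molecule of epithelial cells, measured 12.8 and 212 CPM (16.6-fold higher, 14.9 to 18.5). The claudins form the seal of the tight junction. CLDN6 measured 31.7 and 435 CPM (13.7-fold higher, 12.8 to 14.7), and CLDN7 measured 0.106 and 54.5 CPM (515-fold higher, 176 to 2500). The latter rests on 3 UMIs of CLDN7 under the day 0 label, and as a mean over cells it was 137-fold. ESRP1, which directs the epithelial splicing pattern, measured 0.741 and 124 CPM (167-fold higher, 109 to 270), and its relative ESRP2 measured 0.6 and 10.2 CPM (17-fold higher, 10.4 to 29.7), or 27.4-fold as a mean over cells. TJP1, a scaffold under the junction, went the other way with 593 and 357 CPM (1.66-fold lower, 1.62 to 1.71), short of 2-fold. Vesicle genes of epithelia were also higher: AP1M2, an adaptor for sorting to the lateral membrane, measured 1.16 and 61.9 CPM, and the RAB GTPases RAB17 and RAB25 measured 0.318 and 16.2 CPM and 8.68 and 50.6 CPM. The ratio of AP1M2 was 53.1 from the sums and 106 as a mean over cells, and that of RAB17 was 51.0 and, in cells with at most 10% mitochondrial UMIs, 133. Over all 40 RAB GTPases measured, 7 were higher and 0 lower, with a median of 0.37.

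The cadherins, which join cells of like kind, split. CDH1 (E-cadherin) measured 1.13 and 94.2 CPM, CDH3 (P-cadherin) 11.9 and 72.8 CPM, and CDH18 6.67 and 113 CPM, while CDH2 (N-cadherin) measured 446 and 47.9 CPM (9.31-fold lower, 8.73 to 9.95) and CDH6 43.0 and 2.52 CPM. Of 11 cadherins measured, 3 were higher and 5 lower. The ratio of CDH1 was 83.4 over all kept cells, 286 in cells with at most 10% mitochondrial UMIs and 50.6 as a mean over cells; that of CDH18 was 17.0, 6.56 and 10.5 in the same order. The CDH6 ratio was 0.0586, and 0.0364 without the cells that held more markers of the other kind. The CDH2 ratio stayed between 0.0871 and 0.118 over the 9 other scalings and cell filters.

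Mesenchymal and intermediate filament genes were lower for 7 of 15 measured and higher for 1, with a median of -0.78. ZEB1 and ZEB2, repressors of epithelial genes, measured 74.4 and 7.47 CPM (9.96-fold lower, 8.46 to 11.8) and 54.8 and 6.11 CPM (8.96-fold lower, 7.47 to 10.8). Their ratios were 0.0575 and 0.0721 in cells with at most 10% mitochondrial UMIs. The filament proteins vimentin (VIM) and nestin (NES), named here after their values were seen, measured 674 and 206 CPM (3.27-fold lower, 3.16 to 3.38) and 238 and 64.9 CPM (3.67-fold lower, 3.46 to 3.9). SNAI1, another repressor of epithelial genes, was the member that was higher, at 5.65 and 14.2 CPM (2.52-fold, 2.07 to 3.07); its ratio was 1.99 in cells with at most 10% mitochondrial UMIs.

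Among 21 tetraspanins and surface antigens, 6 were higher and 2 lower, while the median was -0.05, so a few members carried the difference. CD9, a tetraspanin, measured 1.76 and 170 CPM (96.2-fold higher, 72.8 to 130). CD24, a small surface glycoprotein, measured 170 and 1660 CPM (9.79-fold higher, 9.5 to 10.1). PODXL, the sialomucin that carries antigens used to recognise pluripotent cells, measured 45.3 and 430 CPM (9.49-fold higher, 8.95 to 10.1), and THY1, which is CD90, 23.2 and 181 CPM (7.8-fold higher, 7.17 to 8.48). The neural adhesion molecule NCAM1 measured 35.8 and 9.41 CPM (3.81-fold lower, 3.27 to 4.47).

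In each of 4 lists of matrix genes more members were lower than higher in the library labelled day 2, and most members passed neither limit. Of 20 collagens measured, 6 were lower and 3 higher (median -0.67). COL2A1, the cartilage collagen that is also made in the early neural tube and notochord, measured 259 and 9.84 CPM (26.3-fold lower, 22.9 to 30.4), and its fibril partner COL11A1 174 and 14.8 CPM (11.7-fold lower, 10.4 to 13.2). Of 25 proteoglycans and their enzymes, 6 were lower and 4 higher. The glypicans are heparan sulfate proteoglycans held on the membrane by a lipid anchor, and GPC3 and GPC4 lie next to each other on chromosome X. GPC3 measured 1170 and 176 CPM (6.65-fold lower, 6.42 to 6.88), whereas GPC4 measured 113 and 304 CPM (2.7-fold higher, 2.59 to 2.82). HS6ST2, which adds sulfate to heparan sulfate chains, measured 148 and 25.1 CPM (5.89-fold lower, 5.37 to 6.47), and SULF1, which removes such sulfate, 62.6 and 12.9 CPM (4.85-fold lower, 4.26 to 5.54). With at most 10% mitochondrial UMIs the ratios of COL11A1 and SULF1 were 0.0523 and 0.108, and as a mean over cells that of HS6ST2 was 0.111. Of 17 matricellular and secreted glycoproteins, 6 were lower and 3 higher, with SMOC1, a secreted modulator of BMP signals, at 186 and 20.9 CPM and the fibrillin FBN2 at 134 and 21.6 CPM. Of 21 matrix proteases and inhibitors, 8 were lower and 2 higher; the serine protease PRSS23 measured 284 and 13.7 CPM (20.8-fold lower, 18.5 to 23.5).

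**Figure D2:**
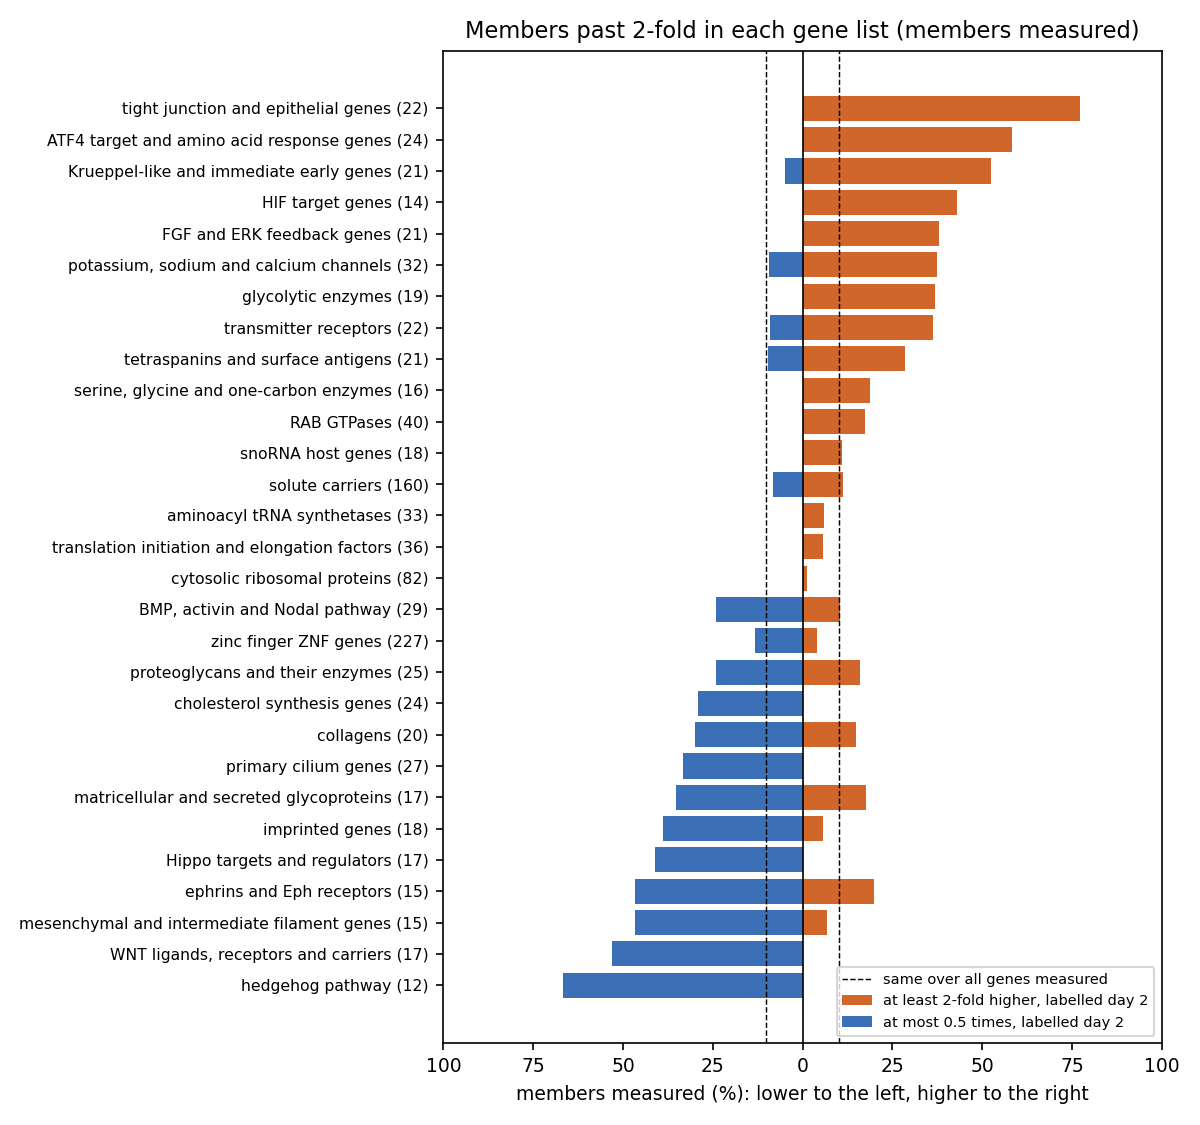
Bars give, for each gene list with the number of members measured in brackets, the percent of members higher by 2-fold or more (right, orange) and at 0.5 times or less (left, blue) under the day 2 label; dashed lines mark 10.1% and 10.2%, the same shares over all genes measured. Tight junction and epithelial genes reach 77.3% on the right and hedgehog genes 66.7% on the left, while cytosolic ribosomal proteins stay at 1.22% and 0%.

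Carbon metabolism differed at glycolysis. Of 19 glycolytic enzymes measured, 7 were higher and 0 lower under the day 2 label, and the median log2 ratio was 0.81. The hexokinases trap glucose in the cell: HK1 measured 48.9 and 201 CPM (4.1-fold higher, 3.86 to 4.36) and HK2 23.7 and 70.2 CPM (2.96-fold higher, 2.7 to 3.25). LDHA, the lactate dehydrogenase subunit that favours lactate, measured 203 and 738 CPM (3.63-fold higher, 3.52 to 3.74), and LDHB, the subunit that favours pyruvate, 1017 and 1495 CPM (1.47-fold higher, 1.45 to 1.49). PDK1, the kinase that closes the entry of pyruvate to the mitochondrion, measured 10.7 and 54.6 CPM (5.09-fold higher, 4.48 to 5.8). PKM, the pyruvate kinase of growing cells, measured 410 and 486 CPM (1.19-fold higher, 1.16 to 1.22). Named after their values were seen, the phosphoglycerate kinase PGK1 measured 266 and 714 CPM (2.68-fold higher, 2.61 to 2.76) and UGP2, which makes UDP-glucose, measured 64.8 and 637 CPM (9.82-fold higher, 9.35 to 10.3). In the pathways fed by glycolysis fewer members passed 2-fold: 0 of 19 genes of the tricarboxylic acid cycle and pyruvate entry in either direction (median 0.43), and 2 higher and 0 lower of 25 genes of the pentose phosphate path and nucleotide synthesis (median 0.38). Those 2, TKT (2.09-fold) and TALDO1 (2.06-fold), were under 2-fold in cells with at least 5% mitochondrial UMIs and with median-of-ratios factors.

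Of 14 genes known as targets of the HIF factors, 6 were higher and 0 lower (median 0.66). ADM, the secreted peptide adrenomedullin, measured 2.08 and 92.2 CPM (44.3-fold higher, 34.2 to 58.4), and 27.5-fold in cells with at most 10% mitochondrial UMIs. AK4, an adenylate kinase of the mitochondrial matrix, measured 6.74 and 138 CPM (20.5-fold higher, 17.7 to 23.9), and BNIP3, a receptor for the removal of mitochondria, 64.8 and 304 CPM (4.68-fold higher, 4.45 to 4.94). Other targets did not pass: the glucose transporter SLC2A3 measured 211 and 300 CPM (1.42-fold higher, 1.37 to 1.47) and the collagen hydroxylase P4HA1 71.3 and 52.3 CPM (1.36-fold lower, 1.27 to 1.47). Levels also moved with the mitochondrial share of the cells: LDHA measured 1078 CPM in cells of the library labelled day 2 with under 5% mitochondrial UMIs and 625 CPM in its other cells, and 364 and 192 CPM in the same classes of the library labelled day 0. Within each class the library labelled day 2 was higher.

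HIF factors bind around the letters ACGTG. In the 250 bases before the RefSeq gene start, on either strand, these letters were found for 12 of 19 matched glycolytic enzymes (63.2%) and 7 of 11 matched HIF targets (63.6%), against 30.1% of 7774 measured genes with a promoter in the table. Of matched members that were higher, 6 of 7 glycolytic enzymes and 4 of 5 HIF targets held them. Members that were not higher held them too, among them PFKM (ratio 0.858) and P4HA1 (ratio 0.733). LDHA (GENCODE span chr11:18394388-18408425, plus strand) and BNIP3 (chr10:131966455-131982013, minus strand) are shown as a glycolytic enzyme and a HIF target that were higher and hold the letters. Matches are in capitals, and where those of both strands overlap the run is longer. The sequences are from RefSeq, GRCh38.p14, 5′ to 3′ on the strand of the gene, at chr11:18394348-18394513 and chr10:131981988-131982087.
LDHA: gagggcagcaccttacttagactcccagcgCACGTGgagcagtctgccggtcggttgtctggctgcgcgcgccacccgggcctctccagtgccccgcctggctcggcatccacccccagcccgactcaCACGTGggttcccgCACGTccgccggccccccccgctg
BNIP3: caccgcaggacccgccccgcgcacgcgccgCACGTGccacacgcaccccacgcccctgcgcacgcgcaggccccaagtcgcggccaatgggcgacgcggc
A match is a run of letters and was not measured as a binding site. The LDHA stretch covers 215 to 50 bases before the RefSeq start and holds 3 runs, and the single run of BNIP3 begins 134 bases before its start. For some genes shown here and below, the widest GENCODE span reaches into the stretch.

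Genes of the amino acid response were mostly higher in the library labelled day 2. Of 24 measured ATF4 target and amino acid response genes, 14 were higher, 0 were lower, and the median log2 ratio was 1.10. CHAC1, a glutathione-degrading enzyme (GENCODE span chr15:40952962-40956519), measured 3.25 and 72.5 CPM (22.3-fold higher, 18.1 to 27.9). DDIT3, the stress factor CHOP, measured 1.62 and 11.5 CPM (7.08-fold higher, 5.14 to 9.93; 4.28-fold in cells with at most 10% mitochondrial UMIs), and CEBPB, a partner of ATF4, 9.46 and 39.0 CPM (4.13-fold higher, 3.59 to 4.76). Named after their values were seen, the asparagine synthetase ASNS (chr7:97852118-97872542) measured 48.1 and 184 CPM (3.82-fold higher, 3.59 to 4.06) and ATF4 itself 157 and 341 CPM (2.18-fold higher, 2.1 to 2.26). SLC7A3, an importer of arginine and lysine, measured 21.8 and 127 CPM (5.81-fold higher, 5.32 to 6.35), whereas SLC3A2, the shared heavy chain of several amino acid exchangers, measured 109 and 118 CPM (1.08-fold higher, 1.02 to 1.14). Enzymes that load amino acids on tRNA were above the median of all genes (median 0.61), but 2 of 33 passed 2-fold: TARS, for threonine, measured 46.0 and 228 CPM (4.96-fold higher, 4.66 to 5.27), and the mitochondrial MARS2 3.99 and 11.2 CPM. The unfolded protein response also acts through DDIT3, but its list here did not include that gene. Of its 17 members measured, 1 was higher, HERPUD1 (2.4-fold), and 2 were lower (median 0.06). In serine, glycine and one-carbon metabolism 3 of 16 were higher and 0 lower (median 0.44): MTHFD1, MTHFD2 and SHMT2, with 49.4 and 130 CPM, 83.7 and 210 CPM, and 51.5 and 103 CPM. SHMT2 stood at 2.01-fold and fell short of 2-fold under several scalings, down to 1.84.

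ATF4 with C/EBP partners binds the letters TGATGNAA. On either strand of the 250 bases before the start they were found for 4 of 20 matched genes of the list (20% with ASNS, CHAC1, ATF3 and SLC1A5), against 2.51% of the 7774 genes. The stretches of CHAC1 (chr15:40953232-40953331, plus strand) and ASNS (chr7:97872409-97872508, minus strand) are shown as the strongest of the higher members with the letters and as the amino acid enzyme for which such an element is best known; the match is in capitals, and in CHAC1 it lies on the other strand, beginning 209 bases before the start, against 68 bases in ASNS.
CHAC1: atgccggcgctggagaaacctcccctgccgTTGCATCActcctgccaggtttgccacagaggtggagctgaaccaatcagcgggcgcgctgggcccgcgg
ASNS: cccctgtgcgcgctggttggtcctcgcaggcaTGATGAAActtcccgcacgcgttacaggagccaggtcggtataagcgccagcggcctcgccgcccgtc
Both are from RefSeq, GRCh38.p14. Of the 13 matched list members that were higher, 4 held the letters in this window.

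Lipid synthesis went the other way. Of 24 cholesterol synthesis genes, 7 were lower in the library labelled day 2 and 0 were higher (median -0.63). HMGCS1, which makes HMG-CoA, measured 350 and 102 CPM (3.42-fold lower, 3.26 to 3.58). FDPS, which makes farnesyl diphosphate, measured 102 and 25.2 CPM (4.04-fold lower, 3.68 to 4.45), and MSMO1, a late demethylating oxidase, 541 and 176 CPM (3.07-fold lower, 2.96 to 3.19). INSIG1, the sterol sensor that holds back the pathway and is itself a target of the factor SREBP2, measured 115 and 47.2 CPM (2.43-fold lower, 2.26 to 2.62). Of 14 genes of fatty acid synthesis and desaturation, 4 were lower and 0 higher (median -0.36): FADS1, the delta-5 desaturase, measured 416 and 150 CPM (2.76-fold lower, 2.66 to 2.88) and SCD5 32.6 and 3.88 CPM (8.41-fold lower, 6.69 to 10.7), while the synthase FASN measured 220 and 244 CPM (1.11-fold higher, 1.07 to 1.15). In fatty acid oxidation 2 of 12 were higher and 0 lower, ECI2 and ACAA2, with 17.6 and 54.5 CPM and with 37.0 and 100 CPM.

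**Figure D3:**
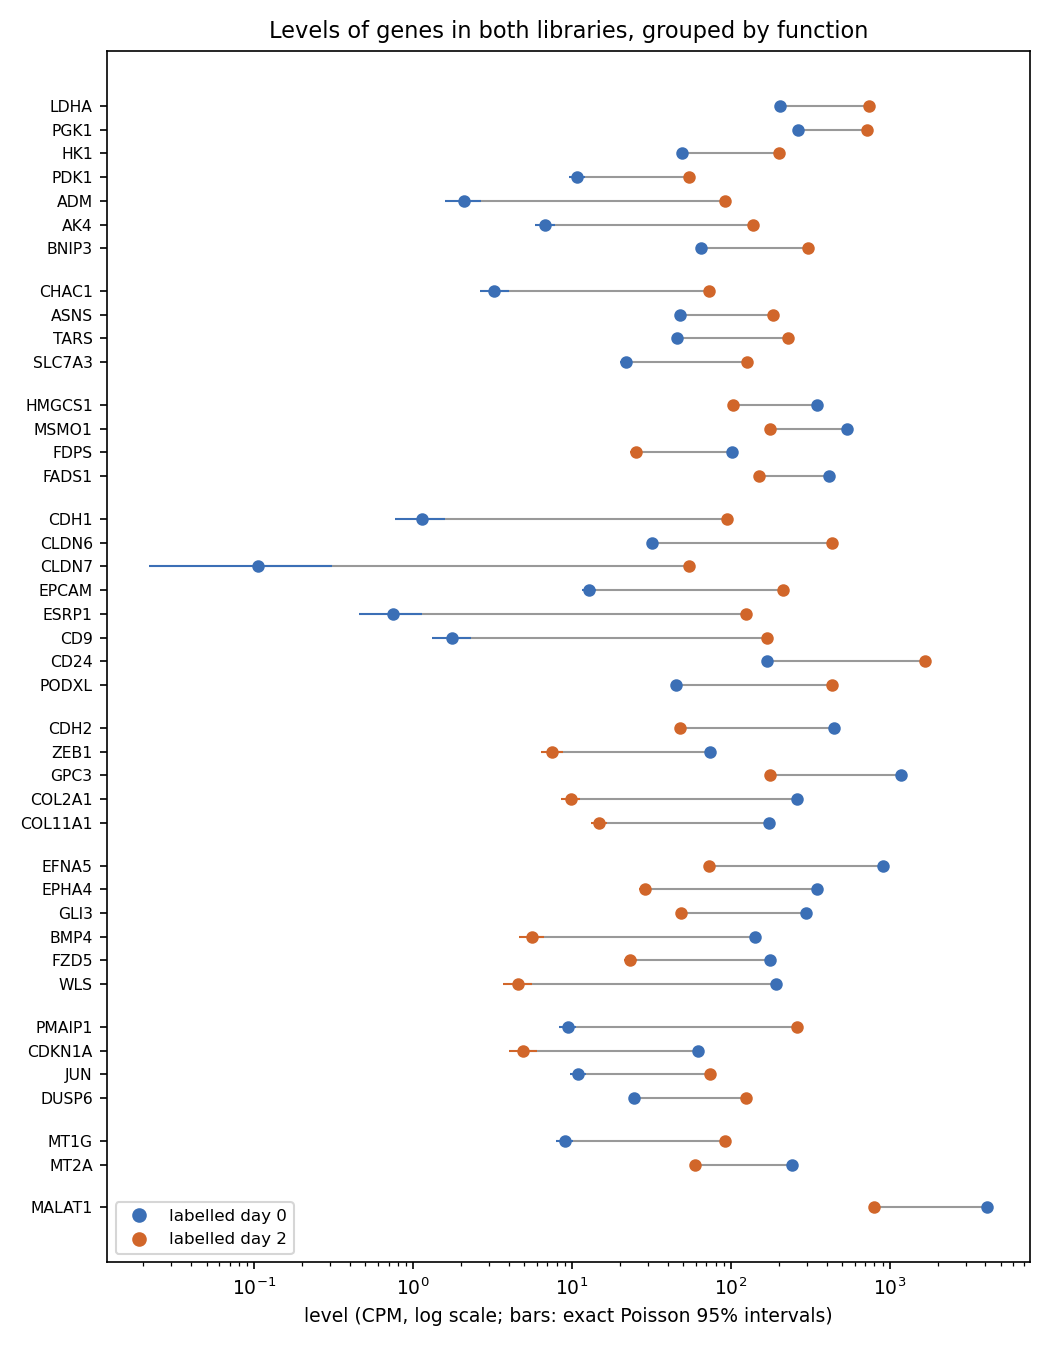
Levels in CPM on a log scale of the library labelled day 0 (blue) and that labelled day 2 (orange), with exact Poisson 95% intervals as bars, where a grey line joins both levels of a gene; from the top the groups are carbon metabolism, amino acid response, lipid synthesis, epithelial surface, matrix and mesenchymal genes, guidance and growth signals, stress and early response, metallothioneins and MALAT1. Blue points lie to the right of orange ones for lipid synthesis, matrix and guidance genes (GPC3 at 1170 and 176 CPM), and to the left for carbon metabolism and the epithelial surface (CD24 at 170 and 1660 CPM).

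The metallothioneins, small zinc and copper binding proteins in a cluster on chromosome 16, differed by member. MT1G measured 9.0 and 92.4 CPM (10.3-fold higher, 9.0 to 11.7) and MT1H 1.83 and 27.1 CPM (14.8-fold higher, 11.1 to 20). In contrast MT2A measured 242 and 59.3 CPM (4.08-fold lower, 3.84 to 4.34), and MT1E measured 52.8 and 33.9 CPM (1.56-fold lower, 1.42 to 1.71). Of 6 measured, 2 were higher and 1 lower, with a median of 0.16 that ran from -0.64 to 0.80 over the alternatives. These genes were read from few cells. The 1% of cells with most UMIs of a gene (23 and 25 cells) held 25.2% of MT2A in the library labelled day 0 and 28.4% in that labelled day 2, and 47.3% of MT1E in the former, against a median over genes with at least 50 CPM of 7.59% and 11.5%. The members are near-identical in sequence, and how reads shared by copies were counted is not given in the sources used here. The factor MTF1 binds metal response elements, read here as TGCACNC or TGCGCNC on either strand. The letters are common: 41.6% of the 7774 promoters of 250 bases hold them, as did 3 of 3 matched metallothioneins. MT1H (GENCODE span chr16:56669814-56671129, window chr16:56669564-56669813) and MT2A (GENCODE span chr16:56608199-56609497, window chr16:56608334-56608583), both on the plus strand, are shown because they stood on opposite sides, with the matches in capitals.
MT1H: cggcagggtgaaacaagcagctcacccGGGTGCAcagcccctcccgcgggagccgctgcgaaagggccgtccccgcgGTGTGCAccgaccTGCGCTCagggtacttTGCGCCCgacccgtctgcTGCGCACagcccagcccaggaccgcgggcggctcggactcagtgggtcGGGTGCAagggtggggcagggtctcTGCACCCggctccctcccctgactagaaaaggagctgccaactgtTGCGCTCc
MT2A: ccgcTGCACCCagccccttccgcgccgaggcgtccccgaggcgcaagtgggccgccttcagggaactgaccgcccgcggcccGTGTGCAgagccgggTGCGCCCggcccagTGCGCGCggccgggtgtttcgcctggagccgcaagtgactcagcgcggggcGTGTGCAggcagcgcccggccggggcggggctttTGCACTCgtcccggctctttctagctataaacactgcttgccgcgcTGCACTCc
MT1H held 8 such runs and MT2A 7, so the count of runs did not separate the member that was higher from the one that was lower.

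Of 11 iron handling genes, 5 were higher (45.5%, median 0.22), among them the ferrireductases STEAP3 (2.29 and 12.2 CPM) and STEAP2 (5.36 and 21.0 CPM), and FTL was lower. Of 26 glutathione and thioredoxin enzymes, 2 were higher and 1 lower (median 0.07). In creatine, polyamine and proline metabolism, CKMT1A and CKMT1B, copies of the mitochondrial creatine kinase that share reads, measured 3.21 and 34.3 CPM and 2.12 and 23.6 CPM, and ODC1, which starts polyamine synthesis, 366 and 130 CPM (2.83-fold lower, 2.71 to 2.95).

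Growth signals split by pathway. Of 21 FGF and ERK feedback genes, 8 were higher and 0 lower (median 0.53). These genes are switched on by ERK and many of them dampen it. ETV4, a factor downstream of FGF, measured 1.91 and 59.0 CPM (30.9-fold higher, 23.6 to 41.4), SPRY4, an inhibitor of the receptor signal, 2.01 and 52.3 CPM (26.0-fold higher, 19.9 to 34.5), and DUSP6, an ERK phosphatase, 24.6 and 125 CPM (5.08-fold higher, 4.67 to 5.53). In the BMP, activin and Nodal pathway, 3 of 29 were higher and 7 lower (median -0.32). Among the ligands named, BMP4 measured 142 and 5.58 CPM (25.4-fold lower, 21.1 to 30.9), BMP2 38.6 and 7.66 CPM and BMP7 51.2 and 14.9 CPM. The BMP2 ratio was 0.198, and 0.13 in cells with at most 10% mitochondrial UMIs. Inhibitors stood on both sides. SKIL, which blocks SMAD complexes, measured 15.5 and 121 CPM (7.81-fold higher, 7.06 to 8.67), PMEPA1, which sequesters SMADs, 0.388 and 14.7 CPM (37.8-fold higher, 20.9 to 76.6), and BAMBI, a decoy receptor, 5.12 and 20.8 CPM, whereas FST (follistatin), which binds activins and BMPs outside the cell, measured 88.7 and 26.9 CPM (3.3-fold lower, 3.01 to 3.63; ratio 0.183 in cells with at most 10% mitochondrial UMIs). The induction kit named in the labels inhibits SMAD signalling. It is named for every library, as is mTeSR medium, and its part in these differences was not tested.

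Of 17 WNT ligands, receptors and carriers, 9 were lower and 0 higher (median -1.03). WLS, which carries WNT proteins to the surface, measured 192 and 4.56 CPM (42.2-fold lower, 34.4 to 52.3). FZD5, a WNT receptor, measured 177 and 23.3 CPM (7.58-fold lower, 6.9 to 8.34), the receptor ROR2 55.5 and 8.24 CPM, and the ligand WNT5B 40.6 and 4.99 CPM. With at most 10% mitochondrial UMIs the ratios of WLS, ROR2 and WNT5B were 0.0149, 0.0829 and 0.065, further from 1 than over all kept cells. Among 11 antagonists and targets, 4 were lower and 1 higher: the secreted antagonist FRZB measured 110 and 7.71 CPM (14.3-fold lower, 12.2 to 16.8), and TCF7L1, a repressor at WNT target genes, 96.3 and 229 CPM (2.38-fold higher, 2.27 to 2.5). Of 12 genes listed for the hedgehog pathway, with GLIS3 counted among them, 8 were lower and 0 higher (median -1.29). SMO, PRKACA, GLI2 and GPR161 lay within 2-fold (ratios 0.868, 0.844, 0.730 and 0.545). The effector GLI3 measured 297 and 48.5 CPM (6.12-fold lower, 5.73 to 6.54), its relative GLIS3 148 and 4.02 CPM (36.8-fold lower, 29.6 to 46.3), and the co-receptors BOC and CDON 21.2 and 2.52 CPM and 74.0 and 15.6 CPM. Hedgehog signals pass through the primary cilium, and of 27 cilium genes 9 were lower and 0 higher (median -0.60), with CEP290, a protein of the ciliary gate, at 70 and 17.7 CPM (3.95-fold lower, 3.53 to 4.42). Of those 27, 5 were lower in cells with at least 5% mitochondrial UMIs. Hippo targets and regulators were lower for 7 of 17 and higher for 0 (median -0.44), for example AJUBA at 84.2 and 24.3 CPM (3.46-fold lower, 3.14 to 3.81). Other members stood above 1 within 2-fold: TEAD4 (ratio 1.69), YAP1 (1.59), WWTR1 (1.59) and CYR61 (1.59).

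Guidance molecules differed by family. Of 15 ephrins and Eph receptors, which signal between touching cells, 7 were lower in the library labelled day 2 and 3 higher (median -0.83). The ligand EFNA5 measured 911 and 73.2 CPM (12.4-fold lower, 11.8 to 13.1), the receptor EPHA4 347 and 28.7 CPM (12.1-fold lower, 11.1 to 13.2) and the ligand EFNB2 166 and 17.8 CPM (9.34-fold lower, 8.39 to 10.4). EPHA1 stood apart from them with 0.529 and 42.7 CPM (80.7-fold higher, 48.7 to 145). In cells with at most 10% mitochondrial UMIs the ratios of EFNA5, EPHA4, EFNB2 and EPHA1 were 0.0488, 0.0346, 0.0607 and 138. The neighbouring class 3 semaphorins on chromosome 7 also split, SEMA3E with 28.3 and 170 CPM (6.02-fold higher, 5.58 to 6.51) and SEMA3A with 224 and 62.6 CPM (3.58-fold lower, 3.37 to 3.81). Of 15 semaphorins and plexins, 2 were higher and 2 lower (median 0.24). The ratios of SEMA3E and SEMA3A were 12.4 and 0.163 in cells with at most 10% mitochondrial UMIs. Of 14 other axon guidance molecules, 6 were lower and 2 higher (median -0.36). The guidance receptor ROBO2 measured 23.4 and 73.9 CPM (3.16-fold higher, 2.89 to 3.47), but 1.89-fold in cells with at most 10% mitochondrial UMIs and 1.97-fold as a mean over cells. Of 12 genes of the insulin-like growth factor system, 1 was higher and 1 lower (median -0.12). These shares, 8.33% each, were under the 10.1% and 10.2% of all genes. The 2 members were IGFBP5 at 136 and 5.19 CPM (26.3-fold lower, 21.7 to 32.2) and IGFBP4 at 9.91 and 37.1 CPM (3.75-fold higher, 3.26 to 4.31). The chemokine CXCL12 measured 0.741 and 42.3 CPM (57.1-fold higher, 37.1 to 92.8; 33-fold in cells with at most 10% mitochondrial UMIs).

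Ion channels and transmitter receptors, often read as neural, also had higher members in the library labelled day 2, which had few neural progenitor markers. Of 32 genes with symbols of potassium, sodium and calcium channels, 12 were higher and 3 lower under the day 2 label (median 0.85). That median was -0.03 in cells with at most 10% mitochondrial UMIs. The 32 were taken by symbol and include KCNQ1OT1, a non-coding RNA, which lay within 2-fold (ratio 0.507). Of 22 transmitter receptors, 8 were higher and 2 lower (median 0.44). The serotonin receptor HTR2C measured 11.3 and 99.6 CPM (8.79-fold higher, 7.81 to 9.92), and the AMPA receptor subunit GRIA1 27.9 and 3.15 CPM (8.87-fold lower, 6.88 to 11.6). PCDH11X, a protocadherin on chromosome X, measured 92.6 and 794 CPM (8.57-fold higher, 8.23 to 8.94), and the secreted synaptic pentraxin NPTX1 0.388 and 110 CPM (284-fold higher, 159 to 570).

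In a list of Krueppel-like factors and genes of the early response to stimuli, 11 of 21 measured were higher and 1 lower (median 1.08). JUN and FOS, partners in the factor AP-1, measured 10.9 and 74.3 CPM (6.81-fold higher, 6.02 to 7.72) and 29 and 116 CPM (4.0-fold higher, 3.69 to 4.33). The Krueppel-like zinc finger factors KLF4 and KLF5 measured 2.47 and 21.9 CPM and 1.87 and 13.6 CPM. BTG2, an antiproliferative early gene, was the one lower, with 27.8 and 5.14 CPM (5.41-fold lower, 4.41 to 6.69). With at most 10% mitochondrial UMIs the ratios were 3.05 for JUN, 2.35 for FOS and 4.18 for KLF4. The part of the mitochondrial share in these ratios was not tested. JUN measured 23.5 CPM in cells of the library labelled day 2 under 5% mitochondrial UMIs and 91.2 CPM in the others, against 7.65 and 11.1 CPM in the library labelled day 0. The letters TGACGTCA were searched in the 250 bases before the start, on either strand. They were found for 3 of 18 matched members (16.7%), against 3.81% of the 7774 genes. None of the 10 matched members that were higher held them.

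Targets of p53 did not move together. Of 21 measured, 1 was higher and 6 were lower (median -0.13). PMAIP1, the BH3-only protein NOXA, measured 9.39 and 262 CPM (28.0-fold higher, 24.7 to 31.7), while the cell cycle inhibitor CDKN1A measured 62.3 and 4.95 CPM (12.6-fold lower, 10.3 to 15.5; ratio 0.123 in cells with at most 10% mitochondrial UMIs) and the RNA-binding ZMAT3 48.0 and 16 CPM (3.0-fold lower, 2.66 to 3.4). Of the BCL2 family and caspases 3 of 19 were higher and 3 lower; BCL2, which holds back apoptosis, measured 17.1 and 3.98 CPM, and BCL2L11 (BIM), which promotes it, 57.3 and 22.9 CPM. Cell cycle genes were lower for 5 of 29 and higher for 1: CCNG2, a cyclin of quiescent cells, measured 166 and 22.6 CPM (7.36-fold lower, 6.69 to 8.11), CDKN1C 141 and 43.1 CPM (3.27-fold lower, 3.04 to 3.52), and CCNE1, the cyclin of the entry to S phase, 11 and 24 CPM (2.18-fold higher, 1.89 to 2.52). Of the CDKN1A UMIs under the day 0 label, 25% lay in 23 cells.

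Immune genes leaned to 1 side. Of 8 antigen presentation genes measured, 3 were higher and 0 lower under the day 2 label (median 0.77), with HLA-B at 7.69 and 33.7 CPM (4.38-fold higher, 3.76 to 5.12) and the immunoproteasome subunit PSMB8 at 0.494 and 12 CPM (24.3-fold higher, 14.2 to 45.2; 60.7-fold in cells with at most 10% mitochondrial UMIs). Of 13 interferon and innate immune genes, 5 were higher and 0 lower (median 0.77), for example IFITM1, a membrane barrier to viruses, at 1.02 and 17.2 CPM (16.8-fold higher, 11.5 to 25.5). With a minimum of 50 CPM no member of either list passed 2-fold, since those that did were under that level. S100A11, a calcium-binding protein, measured 12.1 and 101 CPM (8.34-fold higher, 7.44 to 9.38).

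Chromatin genes stood near the background as lists, with single members apart. Of 37 Polycomb and Trithorax genes, 2 were higher and 5 lower: PHC1, a subunit of the complex PRC1, measured 4.66 and 52.3 CPM (11.2-fold higher, 9.37 to 13.6), and JARID2, a partner of PRC2, 104 and 411 CPM (3.96-fold higher, 3.8 to 4.13). Of 25 DNA methylation and demethylation genes, 3 were higher and 4 lower, with the methyltransferase DNMT3B at 70.6 and 530 CPM (7.51-fold higher, 7.16 to 7.88). Of 18 imprinted genes measured, 7 were lower and 1 higher (median -0.92). SNRPN, a splicing protein read from the paternal copy, measured 276 and 763 CPM (2.77-fold higher, 2.7 to 2.85). DLK1, a Notch-like protein of an imprinted cluster on chromosome 14, measured 3137 and 79.5 CPM (39.5-fold lower, 37.6 to 41.5), and MEG3 of the same cluster 19.1 and 0.921 CPM (ratio 0.0482, and 0.0955 in cells with at most 10% mitochondrial UMIs). Of DLK1 UMIs under the day 2 label, 79.0% lay in 25 cells, and without the cells that held more markers of the other kind the ratios of DLK1 and MEG3 were 0.00404 and 0.023. Of 227 ZNF genes, 30 were lower and 9 higher (median -0.28), with ZNF521 at 201 and 36.6 CPM (5.5-fold lower, 5.1 to 5.94). None of the 35 HOX genes in the files reached 10 CPM.

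The machinery of protein synthesis was nearly level. Of 82 cytosolic ribosomal proteins, 81 lay within 2-fold, and their median was 0.01, with summed levels of 16.5% and 16.4% of UMIs. The exception was RPL22L1, a paralog of RPL22, with 57.2 and 170 CPM (2.97-fold higher, 2.8 to 3.16). Among 45 proteasome subunits 3 were higher and 0 lower, and among 43 complex I subunits and assembly factors 1 was higher and 0 lower. Of 36 translation factors 2 passed 2-fold, EIF3B (2.52-fold, 2.41 to 2.64) and EIF5A (2.02-fold, 1.97 to 2.06), of which EIF5A was under 2-fold with TMM factors (1.93). Of 28 heat shock proteins and chaperonins, 2 were higher and 0 lower (median 0.39), while HSP90AA1 measured 3805 and 2395 CPM (1.59-fold lower, 1.57 to 1.61).

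Actin and microtubule genes differed by member. TMSB4X, which binds actin monomers, measured 741 and 1800 CPM (2.43-fold higher, 2.39 to 2.47), and its relative TMSB15A 368 and 140 CPM (2.63-fold lower, 2.52 to 2.74). The tropomyosin TPM1 measured 417 and 143 CPM (2.93-fold lower, 2.81 to 3.05). Of 38 actin cytoskeleton genes, 3 were higher and 6 lower. Among 21 tubulins and microtubule proteins, 3 were higher and 5 lower: STMN3 measured 3.0 and 43.6 CPM (14.5-fold higher, 11.6 to 18.4), and MAP2, a microtubule protein of dendrites, 174 and 24.4 CPM (7.13-fold lower, 6.5 to 7.83).

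Several non-coding RNAs had ratios far from 1. Of the 20 genes highest by the bound of the interval nearest 1, pluripotent and neural progenitor markers left out, LINC00678 and FOXD3-AS1 had 1 UMI each under the day 0 label and 2135 and 2403 under the day 2 label. Their ratios were 2934 (526 to 115926) and 3302 (592 to 130471), and 905 and 329 in cells with at most 10% mitochondrial UMIs. LINC00371 measured 2.36 and 472 CPM (200-fold higher, 157 to 258), and RP11-415G4.1 0.318 and 368 CPM (1160-fold higher, 611 to 2537). POU5F1B, a near-identical copy of POU5F1, measured 3.25 and 782 CPM, and reads of the parent gene may be counted there, so its own level is uncertain. On the lower side AC093590.1 measured 77.9 and 0.388 CPM (201-fold lower, 102 to 466), and its ratio was 0.00498 from the sums and 0.00808 as a mean over cells. Of 300 transcripts named by genomic clone, 60 (20%) were higher and 70 (23.3%) lower, and of 104 antisense RNA genes 14 were higher and 31 (29.8%) lower; the strand of counting is not given, so antisense genes and their partners cannot be told apart. MALAT1, an abundant nuclear RNA, measured 4117 and 799 CPM (5.15-fold lower, 5.07 to 5.24), and NEAT1, the RNA of paraspeckles, 27.2 and 5.53 CPM (4.93-fold lower, 4.04 to 6.05). MALAT1 was lower in cells with under 5% mitochondrial UMIs in both libraries (1754 against 4280 CPM in the library labelled day 0, 406 against 930 CPM in that labelled day 2). XACT, an RNA that coats the X chromosome in pluripotent cells, was lower in the library labelled day 2, at 1127 and 293 CPM (3.85-fold lower, 3.75 to 3.96), the reverse of the order of POU5F1. Its ratio was 0.127 in cells with at most 10% mitochondrial UMIs and 0.154 as a mean over cells.

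The share of lower genes was larger among genes of long genomic span, while that of higher genes was largest at both ends of length. Of 1463 genes spanning under 10 kb, 14.9% were higher and 5.47% lower in the library labelled day 2. Of 251 genes spanning over 500 kb, 13.1% were higher and 21.9% lower. In cells with at least 5% mitochondrial UMIs these longest genes were at 15.1% and 15.1%, while genes of 200 to 500 kb were still lower for 17.2% and higher for 12.1%. The part of the mitochondrial share in the difference was not tested.

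**Figure D4:**
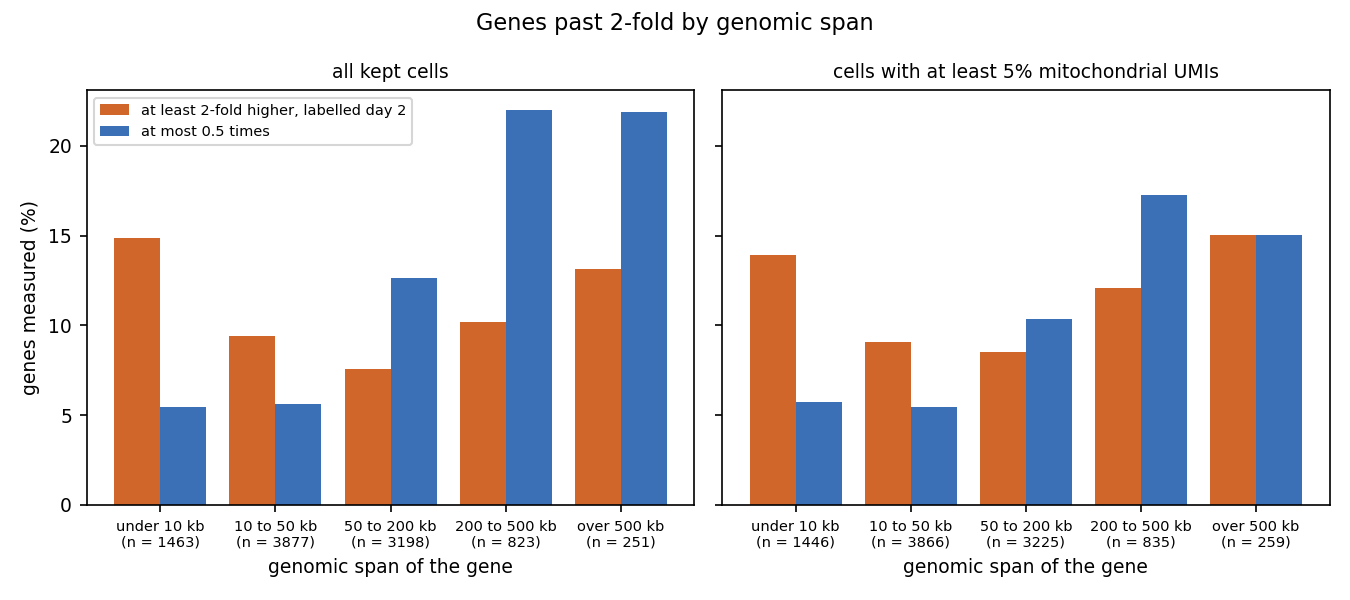
Bars give the percent of measured genes higher by 2-fold or more (orange) and at 0.5 times or less (blue) under the day 2 label by genomic span in kb, for all kept cells (left) and for cells with at least 5% mitochondrial UMIs (right). The lower share goes from 5.47% under 10 kb to 21.9% over 500 kb in all kept cells, and reaches 15.1% over 500 kb on the right.

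Shares of cells with a gene were compared after thinning each cell to 1000 UMIs, the minimum of the cell filter, so that none was too shallow. For 15 genes of blood, endothelium, muscle and heart the median thinned share was 0.0437% and 0.0413%. Of these, KDR (0.349% and 1.69%), ACTA1 (1.27% and 0.951%) and TNNT2 (0.786% and 0.289%) themselves passed 2-fold in CPM and are not read as background. The highest share of the other 12, set apart after their values were seen, was 0.262% and 0.124%, both of MYH6, and shares at or under that level are read as background. CD24 was found in 15.5% (14.0 to 17.0) and 80.9% (79.3 to 82.5) of cells, and TMSB4X in 53.2% (51.1 to 55.2) and 84.2% (82.7 to 85.6). PCDH11X was found in 6.81% (5.81 to 7.92) and 53.9% (51.9 to 55.9), and LDHA in 18.7% (17.2 to 20.4) and 50.4% (48.3 to 52.4). For each of these 4 the share was higher under the day 2 label. The intervals take cells as units, which are not replicates, and cover no variation between cultures. LINC00371 was found in 0.131% (0.027 to 0.382), at background, and in 38.7% (36.8 to 40.7). In the other direction GPC3 was found in 64.2% (62.2 to 66.2) and 12.4% (11.1 to 13.7), PRTG, a neural adhesion protein, in 53.6% (51.5 to 55.6) and 2.4% (1.83 to 3.09), and EFNA5 in 49.1% (47.1 to 51.2) and 4.01% (3.26 to 4.87). MALAT1 was found in 82.0% (80.4 to 83.6) and 35.7% (33.8 to 37.7). Without thinning, these shares were 68.5% and 96.6% for CD24, 69.9% and 82.5% for LDHA, 42.8% and 85.6% for PCDH11X, 93.1% and 41.8% for GPC3, and 91.4% and 62.8% for MALAT1.

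**Figure D5:**
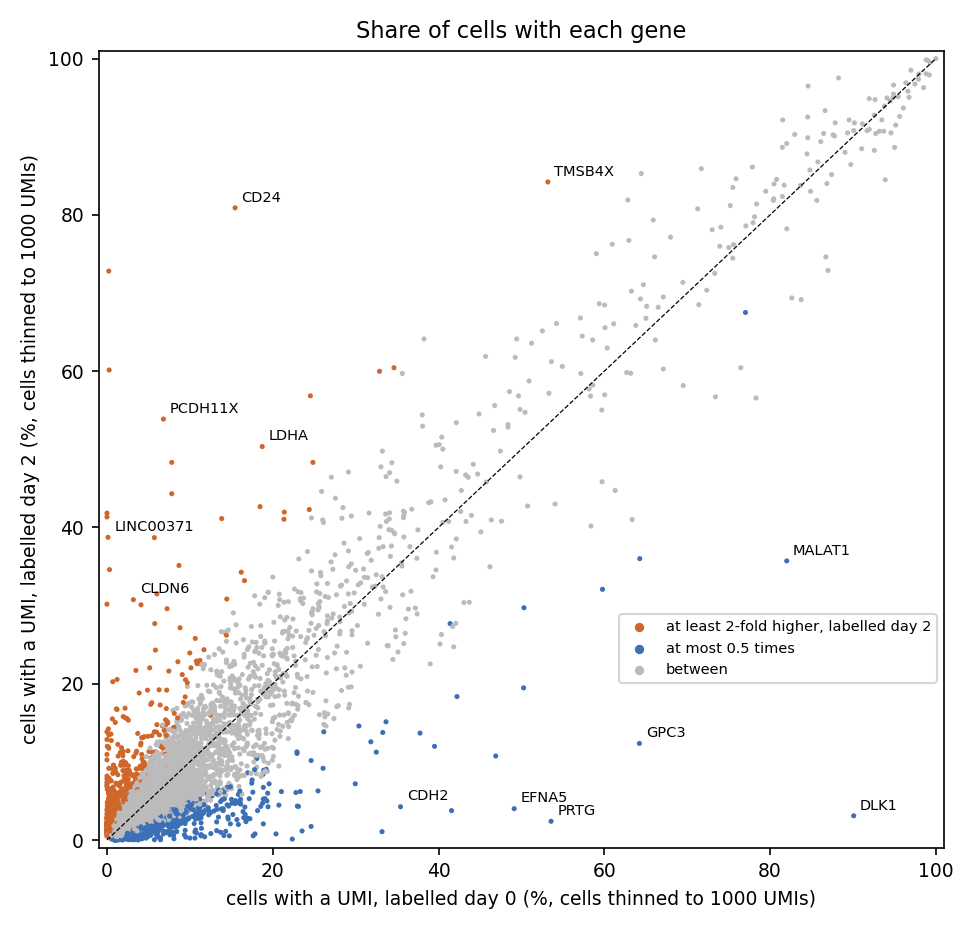
Each point is a gene, coloured by its CPM ratio, with at least 10 CPM in 1 of the libraries; axes give the percent of cells with at least 1 UMI after thinning to 1000 UMIs, labelled day 0 across and labelled day 2 up, with equal shares on the dashed line. CD24 (15.5% and 80.9%) and PCDH11X (6.81% and 53.9%) lie far above the line, and GPC3 (64.2% and 12.4%) and PRTG (53.6% and 2.4%) far under it.

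Some genes had a level without many cells. In the library labelled day 2, NPTX1 was found in 6.49% of thinned cells (5.54 to 7.55), and the top 1% of cells held 37.4% of its UMIs. For MT1G these values were 9.14% (8.02 to 10.4) and 27.6%. In the library labelled day 0, ACTC1, the actin of early heart muscle, had 53% of its UMIs in 23 cells; it measured 50.5 and 20.6 CPM, and its ratio was 0.519 as a mean over cells against 0.408 from the sums. The type I collagen COL1A1, a fibroblast gene, was also among the 10 genes most concentrated there, at 56.5 and 23.2 CPM (2.43-fold lower, 2.2 to 2.7). LDHA, in contrast, had 7.98% and 10.4% of its UMIs in the top 1% of cells, near the median gene.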

How the data were processed

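For each library the authors deposited whole-number counts per gene symbol and barcode, taken here as UMI counts; that duplicates were collapsed is not stated. The submitters' processing notes name STAR and hg38, with no version. Annotation, strand and barcode filter are not given, and every barcode had at least 100 genes. Doublets were not called or removed. UMIs were summed over kept cells and scaled to CPM (python 3.11.15, numpy 2.4.6, scipy 1.17.1, pandas 2.3.3); genes with at least 10 CPM in either library were compared by ratio, with 2-fold as the limit. With 1 library per side no test was possible. The labels do not say whether each library is 1 culture. Coordinates are from GENCODE v29, GRCh38, matched by symbol for 9612 of 10160 genes, and promoters from RefSeq, matched for 7774 genes.

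Named genes were the 20 highest and 20 lowest by the interval bound nearest 1 among those with at least 50 CPM (without pluripotent and neural progenitor markers), the 15 largest gains and losses in CPM, up to 4 highest and 4 lowest of each list, the cell type markers, and the 10 most concentrated genes per library. The 56 lists of function, 45 gene families and 9 marker lists, and all members, were chosen with earlier results of these data known. Alternatives were other scalings (TMM from edgeR 4.0.16 in R 4.3.3, median-of-ratios, totals without mitochondrial and ribosomal protein genes, means over cells), other minimum levels and other cell filters. The calculation was tested on simulated data with 9359 genes: 95.7% of intervals held the true ratio, 100% of 4-fold changes were called and 0% of unchanged genes. Intervals leave out variation between cultures and between cells.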

Additional observations from a re-analysis of the deposited data

How the results depend on the processing

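No paired analysis was possible because each group has 1 library, and for the same reason no replicate could be left out. Against 1029 higher and 1035 lower genes, a minimum of 50 CPM gave 310 and 418, a minimum of 3 UMIs gave 4590 and 3320, and cells with at most 10% mitochondrial UMIs gave 1059 and 1626, so that 39.4% of the genes past 2-fold were higher there against 49.9% over all kept cells. Under the 8 other settings the counts ran from 894 to 1199 higher and from 899 to 1412 lower, within 1.5 times. Median-of-ratios factors moved the median log2 ratio of all genes from 0.01 to -0.10 (894 higher and 1242 lower). No named gene past 2-fold changed direction. Of 455 named genes past 2-fold, 401 stayed past it under all 9 scalings and cell filters and 54 did not, among them FTL, TKT, TALDO1, SHMT2, EIF5A, TFRC and ACTC1. The ratio of 129 of the 455 moved by over 1.5 times under a setting, 109 of them in cells with at most 10% mitochondrial UMIs; the cause was not tested. With a median of 3814 UMIs per cell in the library labelled day 2, absence of a gene from a cell is not informative for genes of low level, and 3 UMIs correspond to 0.106 and 0.145 CPM in the libraries labelled day 0 and day 2.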

Other observations

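Retinoid genes and solute carriers held further members far apart. CYP26A1, which degrades retinoic acid, measured 0.212 CPM under the day 0 label and 24.6 CPM under the day 2 label (116-fold higher, 95% counting interval 53 to 318, or 57.9-fold as a mean over cells), and DHRS3, which reduces retinal, 1.73 and 29.1 CPM (16.8-fold higher, 12.6 to 23). Of 9 retinoid genes measured, 3 were higher and 0 lower. Of 160 solute carriers, 18 (11.2%) were higher and 13 (8.12%) lower, close to the 10.1% and 10.2% of all genes; at the lower end SLC6A16 measured 44.0 and 13.2 CPM (3.34-fold lower, 2.92 to 3.82). Of 32 lysosome and autophagy genes 4 were higher and 0 lower, with the protease CTSC at 75.1 and 260 CPM (3.46-fold higher, 3.29 to 3.64).

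Mitochondrially encoded genes, whose share sets the cell filter, were unequal among themselves. MT-RNR2, the large ribosomal RNA of the mitochondrion, measured 29227 and 17063 CPM and MT-CO1, a subunit of cytochrome c oxidase, 10801 and 13781 CPM. In cells with at least 5% mitochondrial UMIs the ratios of labelled day 2 over day 0 were 0.712 and 1.54, and in cells with at most 10% 0.306 and 0.773.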
